A study of Mus musculus with 18 samples.

Results

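The liver RNA of 10 acute-phase proteins was described, namely the serum amyloid A genes Saa1, Saa2, Saa3 and Saa4, the orosomucoid genes Orm1, Orm2 and Orm3, lipocalin 2 (Lcn2), haptoglobin (Hp) and hemopexin (Hpx). The genes were selected by symbol from a list drawn up with results of these data in view, and all 10 were found among the 19057 genes of the deposited table. The source of the list does not say which of the comparisons had drawn attention to them, so the differences of these genes between groups are given as a description and support nothing. Liver RNA-seq was carried out on male ICR mice aged 10 weeks, in 6 groups of 3 libraries. Con mice had the regular diet and saline. HS mice had the high-fat diet and streptozotocin (STZ), which destroys pancreatic beta cells. The recipients, A10-FMT and Con-FMT, had the same diet and STZ and also received fecal microbiota transplants, from donors dosed with 10 mg/kg alginate oligosaccharide (AOS) in A10-FMT and from control donors in Con-FMT. A10 mice were given AOS at 10 mg/kg, and HS+A10 mice had the high-fat diet, STZ and AOS at 10 mg/kg. A10 and HS+A10 were known from the sample labels only, and how AOS was scheduled in them is not given in the sources used here. The donor material was pooled from the small intestine of several donors per group, so the recipients of a group shared 1 source. The labels do not say whether the 3 libraries of a group came from 3 mice, so that the spread between them may in part be technical.

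Acute-phase proteins are plasma proteins that the liver secretes in changed amounts during inflammation. Interleukin 6, released by macrophages and other cells, binds its receptor on hepatocytes and acts through gp130, the JAK kinases and STAT3, and interleukin 1 acts through NF-kB and C/EBP factors. SOCS3 and I-kappa-B alpha (Nfkbia) are feedback inhibitors of these pathways and are themselves induced by them. Saa1 and Saa2 encode the inducible serum amyloid A proteins, which circulate on high-density lipoprotein. Saa3 is an inducible form that macrophages and adipocytes also make, and Saa4 encodes the constitutive form. The orosomucoids, also called alpha-1-acid glycoproteins, carry basic and lipophilic compounds in plasma, lipocalin 2 binds bacterial siderophores and so withholds iron, haptoglobin binds free hemoglobin, and hemopexin binds free heme. In mice, haptoglobin, hemopexin and the serum amyloids are major positive acute-phase proteins.

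The 4 Saa genes stood side by side on chromosome 7 of GRCm38, Saa3 at 46711998 to 46719615, Saa4 at 46727992 to 46732603, Saa1 at 46740497 to 46743181 and Saa2 at 46751833 to 46754313 (RefSeq, build GRCm38.p6). Hpx lay on the same chromosome at 105591611 to 105600116. The Orm genes were neighbours on chromosome 4, Orm1 at 63344556 to 63348163, Orm3 at 63356069 to 63359506 and Orm2 at 63362449 to 63365877. Lcn2 was on chromosome 2 at 32384637 to 32387739, and Hp was on chromosome 8 at 109575128 to 109579172. RefSeq lists the older names of Saa1 and Saa2 interchanged, so the symbols are used here as the table gives them. The 250 bases before the transcription start were on record for 8 of the 10 genes, all but Orm1 and Hp. For Saa1, Saa3 and Orm3 the start used lies inside the span that RefSeq gives for the gene.

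The sequences are shown for Saa1 and Saa2, because they are nearly the same and the RNAs moved together, for Saa4, which differed least between libraries among the Saa genes, and for Lcn2, which followed Saa1 from another chromosome. They come from RefSeq (GRCm38.p6) and read 5′ to 3′ toward the gene. Capitals mark matches to TTNNGNAA on either strand, a loose form of the C/EBP motif. Saa1 is from chr7:46742981-46743230 (minus strand), Saa2 from chr7:46751583-46751832 (plus strand), Saa4 from chr7:46732604-46732853 (minus strand) and Lcn2 from chr2:32387740-32387989 (minus strand).
Saa1: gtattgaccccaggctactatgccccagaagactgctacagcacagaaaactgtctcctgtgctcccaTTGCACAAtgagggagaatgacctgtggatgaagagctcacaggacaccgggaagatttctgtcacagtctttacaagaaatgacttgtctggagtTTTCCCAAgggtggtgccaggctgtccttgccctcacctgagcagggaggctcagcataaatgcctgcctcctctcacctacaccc
Saa2: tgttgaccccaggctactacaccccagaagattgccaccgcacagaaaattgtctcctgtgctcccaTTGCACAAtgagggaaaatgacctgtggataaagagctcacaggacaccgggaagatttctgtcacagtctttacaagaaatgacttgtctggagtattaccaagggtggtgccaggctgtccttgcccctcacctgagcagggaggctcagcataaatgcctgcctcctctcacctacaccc
Saa4: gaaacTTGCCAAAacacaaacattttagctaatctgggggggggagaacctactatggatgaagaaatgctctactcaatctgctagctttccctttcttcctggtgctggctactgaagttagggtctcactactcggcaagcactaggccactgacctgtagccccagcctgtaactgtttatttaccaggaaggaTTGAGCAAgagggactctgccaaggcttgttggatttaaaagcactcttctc
Lcn2: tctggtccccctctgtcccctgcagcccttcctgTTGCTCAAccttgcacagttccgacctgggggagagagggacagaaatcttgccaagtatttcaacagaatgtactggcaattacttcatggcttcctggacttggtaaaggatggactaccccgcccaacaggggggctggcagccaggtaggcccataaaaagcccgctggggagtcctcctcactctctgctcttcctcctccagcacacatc
Saa1 and Saa2 were identical at 94.8% of 251 aligned positions, Orm2 and Orm3 at 85.9% of 255, and Saa1 and Saa4 at 49.5% of 299. A match to TTNNGNAA was present in 8 of 8 of these windows, between 1 match in Saa2, Orm3 and Lcn2 and 4 in Saa3, against 36.8% of all 32851 windows of the same length in the table. In Saa1 and Saa2 the shared match began at -182 and -183 from the start, and a further match of Saa1 at -86 had no match in the other gene. The STAT motif TTCNNNGAA was in 0 of the 8 windows and in 7.02% of all windows, and the NF-kB core GGNNTTNCC was in 1 of the 8, that of Saa3 at -187, and in 13.5% of all windows. In Saa3 the NF-kB match overlapped a C/EBP match. These matches are descriptions of the letters and not evidence that a factor binds there.

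The values were deposited as RPKM, reads scaled to the length of the gene and to the size of the library. Depth is unknown, and the only measure of error is the spread of the 3 libraries per group. RPKM summed to between 692818 and 806937 per library. Albumin and the other hepatocyte markers were high in all 18 libraries, with the 8 markers summing to between 28690 and 43590 RPKM. In Con-FMT replicate 3 the 15 pancreatic acinar genes summed to 24820 RPKM, against 14.2 to 50.7 RPKM in the other 17 libraries. Con replicate 3 lay between the other 2 Con libraries for 98.6% of the 140 tested genes for which these differed by at least 1 on the log2 scale, and A10 replicate 3 did so for 96.3% of 135 genes. For the other 16 libraries this share was 6.52% to 74.6%. Con replicate 3 lay between Con replicates 1 and 2 for all 10 acute-phase genes, at 0.525 to 0.626 of the way from replicate 2 to replicate 1, and A10 replicate 3 lay between its group's other libraries for 9 of the 10. What made these libraries intermediate was not tested. The calls of the 10 genes were recounted without each of them, and those of the other gene lists without Con replicate 3.

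Saa1 and Saa2 had the widest range of the 10 genes. Saa1 was at 6422, 296 and 3569.8 RPKM in Con replicates 1 to 3, at 354, 162 and 67.3 RPKM in HS, at 149.9, 148 and 179 RPKM in A10-FMT and at 1001, 1815 and 1519 RPKM in Con-FMT. In A10 it was at 278, 61.1 and 131 RPKM, and in HS+A10 at 31.0, 60.6 and 24.1 RPKM. All Con-FMT libraries thus stood above all libraries of HS, A10, HS+A10 and A10-FMT, while Con held the 2 highest libraries and 1 at the level of HS. The highest library was 267-fold above the lowest. Saa2 was at 7018, 300.0 and 3826 RPKM in Con, 133, 87.6 and 33.3 RPKM in HS, 54.9, 38.9 and 48.1 RPKM in A10-FMT and 750.3, 591 and 1021 RPKM in Con-FMT. It was at 110.2, 23.7 and 54.0 RPKM in A10 and at 9.83, 21.0 and 8.80 RPKM in HS+A10, and its highest library was 797-fold above its lowest. For Saa2 all 3 Con libraries were above every library of HS, A10, HS+A10 and A10-FMT, and the Con-FMT libraries were above these groups as well.

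The share of Saa2 relative to Saa1 was not the same in all groups. The RPKM of Saa2 divided by that of Saa1 was 1.09, 1.01 and 1.07 in Con, and between 0.263 and 0.750 in the 15 other libraries. It was 0.376, 0.540 and 0.495 in HS, 0.396, 0.388 and 0.412 in A10, and 0.318, 0.346 and 0.366 in HS+A10. In A10-FMT it was 0.366, 0.263 and 0.268, and in Con-FMT 0.750, 0.326 and 0.672. The Con ratio was above 1 in the library with little Saa1 (replicate 2, 296 RPKM) as well as in those with much, whereas HS replicate 1, with 354 RPKM of Saa1, had a ratio of 0.376. In Con-FMT the library with the most Saa1, replicate 2, had the lowest ratio of its group. Of all 50-base stretches of the longest coding transcript of Saa1, 13.2% also occurred in a transcript of Saa2, and 8.46% of those of Saa2 occurred in Saa1 (GENCODE vM21). How reads that fit both genes were counted is not given in the sources used here, so the split between the pair is uncertain.

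**Figure D1:**
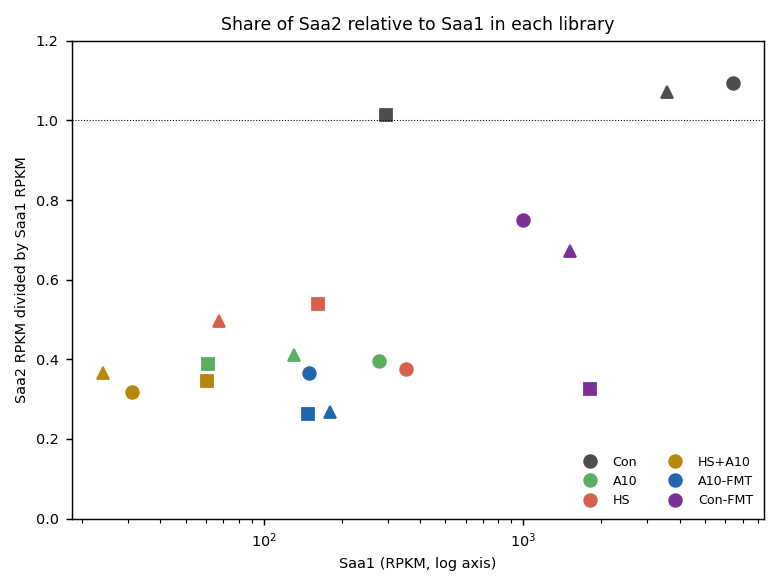
Saa2 RPKM divided by Saa1 RPKM (vertical axis, linear) against Saa1 in RPKM (horizontal axis, log scale) for the 18 libraries, with colours for the 6 groups and circles, squares and triangles for replicates 1, 2 and 3. The dotted line marks equal levels, and the 3 Con libraries lie above it at 1.01 to 1.09, while the other 15 lie between 0.263 and 0.750.

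Saa3 was at 344, 22.6 and 195 RPKM in Con and at 23.1, 83.2 and 22.5 RPKM in Con-FMT, where replicate 2 stood apart from the other libraries of its group. It was at 14.1, 17.4 and 8.87 RPKM in HS, 16.0, 11.8 and 8.02 RPKM in A10-FMT, 12.1, 8.19 and 10.5 RPKM in A10 and 4.49, 9.64 and 3.47 RPKM in HS+A10. These 4 groups overlapped, and all their libraries were below the lowest library of Con-FMT, 22.5 RPKM. The constitutive Saa4 varied less. It was at 355, 143 and 268 RPKM in Con, 225, 137 and 108 RPKM in HS, 199.7, 229 and 258 RPKM in A10-FMT and 373, 654 and 622 RPKM in Con-FMT. In A10 it was at 152, 108 and 124 RPKM and in HS+A10 at 192, 163 and 163 RPKM. Saa4 was 1 of 2 genes of the 10, with Orm3, whose highest group mean was in Con-FMT and not in Con, and each Con-FMT library was above every Con library.

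Orm1, the most abundant of the orosomucoids, was at 3249.8, 1037 and 2219.7 RPKM in Con, 1181, 882 and 1069 RPKM in HS, 518, 504 and 747 RPKM in A10-FMT and 669, 1677 and 1094 RPKM in Con-FMT. It was at 1258, 1049 and 1088 RPKM in A10 and 493, 444 and 590.3 RPKM in HS+A10, so that the 6 libraries of A10-FMT and HS+A10 were all below the lowest HS library. So was Con-FMT replicate 1. Orm2 was at 762, 39.8 and 441 RPKM in Con, 60.0, 82.7 and 76.0 RPKM in HS and 23.6, 126 and 139.6 RPKM in Con-FMT. It was at 28.8, 29.8 and 30.1 RPKM in A10-FMT, the tightest group of any of the 10 genes, at 33.1, 11.6 and 19.6 RPKM in A10 and at 10.3, 19.4 and 7.78 RPKM in HS+A10. As for Orm1, the A10-FMT and HS+A10 libraries lay below all HS libraries, and for Orm2 so did the A10 libraries and Con replicate 2. Con-FMT replicate 1 was below all HS libraries too, while the other Con-FMT libraries were above them. Orm3 was low throughout, at 9.02, 0.880 and 5.28 RPKM in Con, 7.78, 1.41 and 1.43 RPKM in HS, 1.55, 1.30 and 2.78 RPKM in A10-FMT and 8.03, 19.9 and 13.6 RPKM in Con-FMT. It was at 2.37, 0.530 and 1.75 RPKM in A10 and 3.09, 2.25 and 0.860 RPKM in HS+A10, and Con-FMT overlapped Con only through Con-FMT replicate 1. Of the 50-base stretches of Orm1, 20.4% also occurred in Orm2, and of those of Orm3, 2.21% occurred in Orm1 and 3.59% in Orm2, so the split of reads among the 3 genes is uncertain as well.

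Lcn2 was at 1043, 47.5 and 612 RPKM in Con, 88.5, 58.6 and 19.8 RPKM in HS, 20.8, 10.3 and 11.8 RPKM in A10-FMT and 95.8, 425 and 95.2 RPKM in Con-FMT. It was at 48.7, 8.34 and 22.7 RPKM in A10 and at 11.7, 17.6 and 11.6 RPKM in HS+A10. The Con-FMT libraries were above all libraries of HS, A10, HS+A10 and A10-FMT, with replicate 2 far above the other 2, and Con replicate 2 was within the range of HS. Haptoglobin and hemopexin were abundant in every library and moved within a narrower range. Hp was at 4812, 1711 and 3654 RPKM in Con, 2877, 1730.5 and 1313 RPKM in HS, 1735, 1323 and 1309 RPKM in A10-FMT and 2239.8, 4295 and 3443 RPKM in Con-FMT. It was at 2207, 1699.8 and 1704 RPKM in A10 and 1141, 1390.4 and 1164 RPKM in HS+A10. Each of the 3 Con-FMT libraries was above each A10-FMT library, and HS overlapped both groups. Hpx was at 5610.4, 1956 and 4172 RPKM in Con, 3299.9, 2621 and 2741 RPKM in HS, 1976, 1678 and 1774 RPKM in A10-FMT and 2482, 5390.5 and 3200.0 RPKM in Con-FMT. It was at 2191, 2165 and 2041 RPKM in A10 and 1976, 1788 and 1439 RPKM in HS+A10, and the A10, A10-FMT and HS+A10 libraries were all below the lowest HS library. So were Con replicate 2 and Con-FMT replicate 1.

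**Figure D2:**
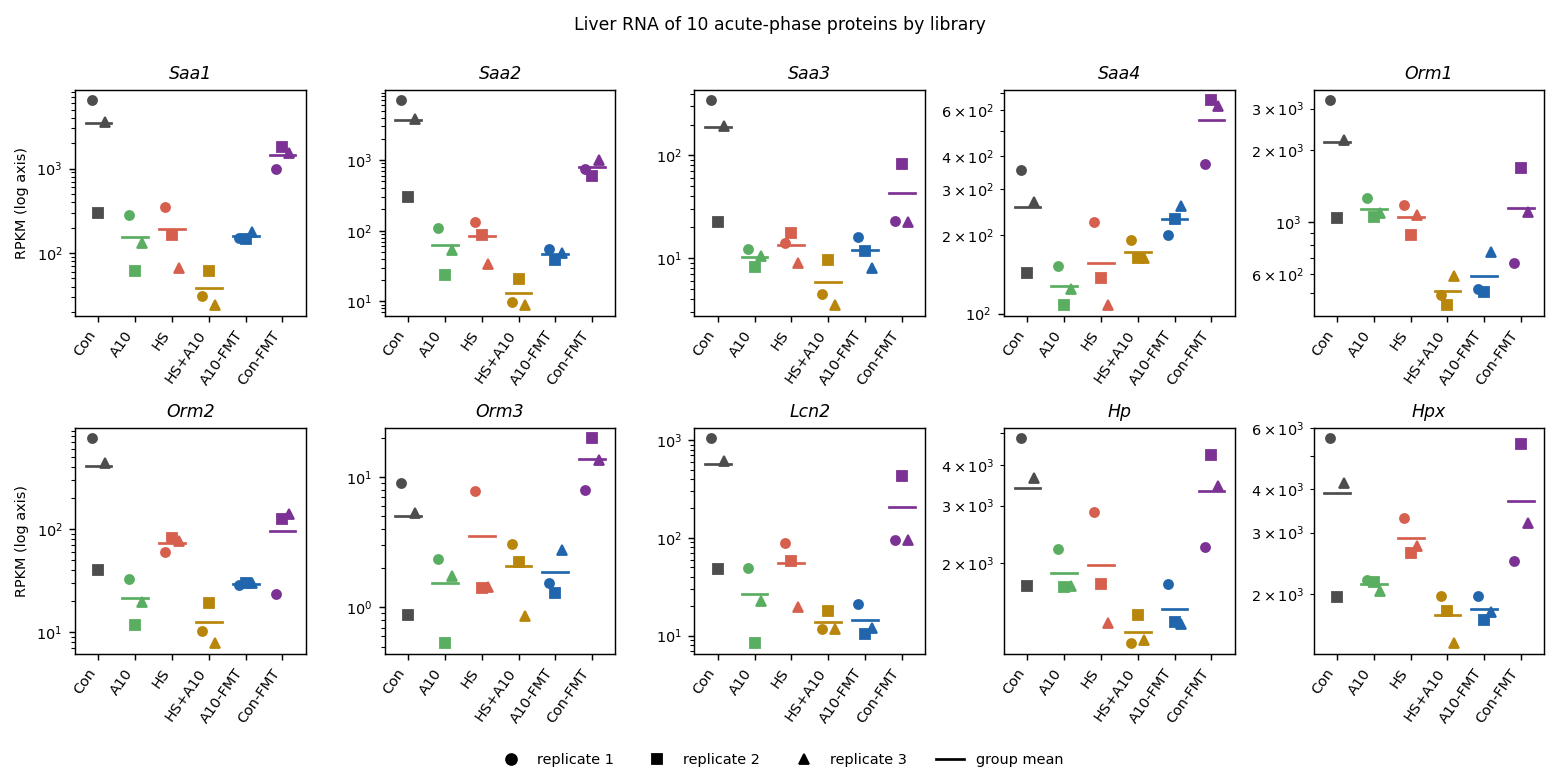
RPKM of each of the 10 genes (vertical axes, log scale, with a range of its own in each panel) in the 6 groups (horizontal axes), with 1 symbol per library and a line at the mean of the 3 libraries. Con replicate 2 is the lowest of its group in each panel, and for Saa1 the Con-FMT libraries sit between 1001 and 1815 RPKM, above all libraries of A10, HS, HS+A10 and A10-FMT.

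The order of the group means was alike across the genes but not the same. HS+A10 had the lowest mean for Saa1, Saa2, Saa3, Orm1, Orm2, Lcn2, Hp and Hpx, and A10 for Saa4 and Orm3. Con had the highest mean for 8 of the 10 genes, all but Saa4 and Orm3, with an SD close to the mean for the genes with the widest range, for example 3429 ± 3065 RPKM for Saa1 and 568 ± 499 RPKM for Lcn2 (mean ± SD, n = 3). Most neighbours in this order overlapped in their libraries. HS and Con-FMT were neighbours for 7 genes, and did not overlap for Saa1, Saa2, Saa3 and Lcn2 but did for Orm2, Hp and Hpx. Con-FMT and Con, neighbours for all 10 genes, overlapped for all but Saa4. For Hp and Orm3 all neighbours overlapped. The share of all tested genes without overlap between groups was not computed, so overlaps here and elsewhere describe single genes only. The 10 genes together took 3.67%, 0.741% and 2.49% of the summed RPKM in Con replicates 1, 2 and 3 and 1.05%, 1.99% and 1.59% in Con-FMT. In the 12 libraries of the other 4 groups they took 0.475% to 1.11%. Since whole liver was sequenced, fewer cells that make an RNA and less of it per cell cannot be told apart.

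Differences were fitted with limma on log2(RPKM + 1) for the 10204 genes whose mean RPKM over the libraries reached 1, all 10 among them, with 1 mean per group over the 18 libraries. The p-values were two-sided, with Benjamini-Hochberg adjustment over all tested genes, and a gene with an adjusted p under 0.05 was called. The shares of all tested genes given below are at this adjusted threshold. Where genes are counted at an unadjusted p under 0.05, the share of all tested genes at that p was not computed. Fold values are on the log2(RPKM + 1) scale, which understates the change of low genes such as Orm3. The deposited values were used unscaled, and the median difference of all tested genes was 0.14 for HS against Con, -0.16 for A10-FMT against HS and -0.12 for Con-FMT against HS. With each library scaled to the same median these became -0.01, 0.00 and -0.02. The split of all called genes moved with them, from 1618 higher and 191 lower to 398 and 486 in HS against Con, from 213 and 2145 to 639 and 516 in A10-FMT against HS, and from 470 and 1943 to 858 and 1240 in Con-FMT against HS. In A10-FMT against Con-FMT it moved from 686 and 1228 to 1302 and 958, in HS+A10 against HS from 301 and 446 to 579 and 356, and in A10 against Con from 5 and 2 to 6 and 4 with quantile normalization. The comparisons share the HS, Con, A10-FMT or Con-FMT libraries, so their values are set side by side and are not independent.

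HS against Con addressed the effect of diet and STZ on the liver. Saa1, Saa2 and Saa3 were called lower in HS. Saa1 had a log2 difference of -3.58 (SE 0.88), Saa2 of -4.76 (SE 0.87, 27.1-fold) and Saa3 of -3.06 (SE 0.74, 8.36-fold), with adjusted p from limma between 0.00288 and 0.0139. The libraries of HS and Con did not overlap for Saa2 and Saa3, and for Saa1 they did. The fitted difference was negative for all 10 genes, with a median of -1.31, beside 0.14 for all tested genes. No member was called higher, and 3 were called lower, where 15.9% of all tested genes were called higher and 1.87% lower. Lcn2, at -2.71 (SE 0.94, adjusted p = 0.0575 from limma), and Orm2, at -1.71 (SE 0.84), did not pass. The Con libraries decided these counts. Without Con replicate 3 the count was 1 (Saa2), without Con replicate 1 also 1, and without Con replicate 2 it was 8, all but Orm3 and Hpx. The log2 difference of Saa2 was -4.29 without Con replicate 3, -3.86 without replicate 1 and -6.13 without replicate 2.

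Con-FMT against HS addressed what transplants from control donors changed. The fitted difference was positive for all 10 genes, with a median of 1.55 beside -0.12 for all tested genes. Saa1 was higher by 3.15 (SE 0.88, 8.88-fold), Saa2 by 3.37 (SE 0.87, 10.4-fold), Saa4 by 1.83 (SE 0.31, 3.56-fold) and Orm3 by 1.91 (SE 0.59, 3.77-fold), with adjusted p from limma between 8.72e-04 and 0.0273. These 4 were called higher and 0 lower, where 4.61% of all tested genes were called higher and 19.0% lower. Lcn2 had a difference of 1.72 (SE 0.94) and Saa3 of 1.38 (SE 0.74) and did not pass, and Orm1 and Orm2 were both at 0.05. The count was 3 without Con-FMT replicate 3, the library with pancreatic RNA, 2 without Con-FMT replicate 2 and 1 without HS replicate 3. Saa4 was called in each of these. Orm3 was no longer called without the filter on low genes or in a fit of the 12 libraries of Con, HS, A10-FMT and Con-FMT.

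A10-FMT against HS asked the same of transplants from AOS-dosed donors. None of the 10 genes was called by limma, and 2 had an unadjusted p under 0.05, Orm1 at -0.84 (SE 0.35) and Hpx at -0.67 (SE 0.31). Of all tested genes, 2.09% were called higher and 21.0% lower at the adjusted threshold, and the share at the unadjusted one was not computed. The difference was negative for 8 of the 10 genes and positive for Saa1, at 0.01 (95% interval -1.85 to 1.88), and Saa4, at 0.61 (-0.05 to 1.26). Their median was -0.52, beside -0.16 for all tested genes. Without Con replicate 2, which enters this comparison only through the shared variance, 2 genes were called, Orm1 and Hpx, and without HS replicate 1, 1 gene was called, Saa4, which was then higher.

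The direct comparison of both kinds of recipients gave the most calls. In A10-FMT against Con-FMT the difference was negative for all 10 genes, with a median of -1.42 beside -0.03 for all tested genes. Saa2 was at -4.01 (SE 0.87, 16.1-fold lower), Lcn2 at -3.43 (SE 0.94, 10.8-fold), Saa1 at -3.14 (SE 0.88, 8.81-fold) and Orm3 at -2.32 (SE 0.59, 4.99-fold). Saa4, at -1.22 (SE 0.31), Hp, at -1.15 (SE 0.34), and Hpx, at -0.95 (SE 0.31), were also called lower. That made 7 of 10 called lower and 0 higher, with adjusted p from limma between 0.00531 and 0.0418, where 12% of all tested genes were called lower and 6.72% higher. Saa3 at -1.53 (SE 0.74), Orm2 at -1.32 (SE 0.84) and Orm1 at -0.88 (SE 0.35) did not pass. The count was 4 without Con-FMT replicate 3, 4 without A10-FMT replicate 3, and 2, Saa2 and Saa4, without Con-FMT replicate 2 and also without A10-FMT replicate 2. Without the filter on low genes it was 3 (Saa2, Saa4 and Orm3), Hpx alone was lost with median scaling or with a replicate block, and Hp and Hpx were lost in the fit of 12 libraries.

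AOS given to the mice themselves was compared in HS+A10 against HS and in A10 against Con. The diet of A10 mice was taken to be the regular diet of Con. In HS+A10 against HS the difference was negative for 9 of the 10 genes, all but Saa4 at 0.20 (SE 0.31), with a median of -1.08 beside -0.03 for all tested genes. None was called by limma, where 2.95% of all tested genes were called higher and 4.37% lower. At an unadjusted p under 0.05 there were 5, a threshold at which the share of all tested genes was not computed. These 5 were Orm2 at -2.54 (SE 0.84), Saa2 at -2.48 (SE 0.87), Saa1 at -2.11 (SE 0.88), Orm1 at -1.03 (SE 0.35) and Hpx at -0.74 (SE 0.31). Without Con replicate 2, which enters only through the shared variance, 4 of them were called, all but Hpx. In A10 against Con all 10 differences were negative, with a median of -2.20 beside 0.07 for all tested genes. Saa2 fell by 5.24 on the log2 scale (SE 0.87, 37.7-fold, adjusted p = 0.0307 from limma) and was the only 1 of the 10 that was called, where 0.0490% of all tested genes, 5 in number, were called higher and 0.0196%, 2 in number, lower. Before adjustment 9 of the 10, all but Orm3, had a p under 0.05, and the share of all tested genes at that p was not computed. This call was lost without Con replicate 1, Con replicate 3, A10 replicate 2, A10 replicate 3, HS+A10 replicate 3 or any of the A10-FMT libraries, and also without the filter on low genes, and without Con replicate 2 there were 6 calls. The difference between the AOS effect under diet and STZ and that on the regular diet was called for none of the 10 genes by limma and for 0.00980% of all tested genes, 1 in number. At an unadjusted p under 0.05 it was positive for 3, Saa2 at 2.75 (SE 1.23), Saa3 at 2.26 (SE 1.04) and Saa4 at 1.11 (SE 0.43).

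**Figure D3:**
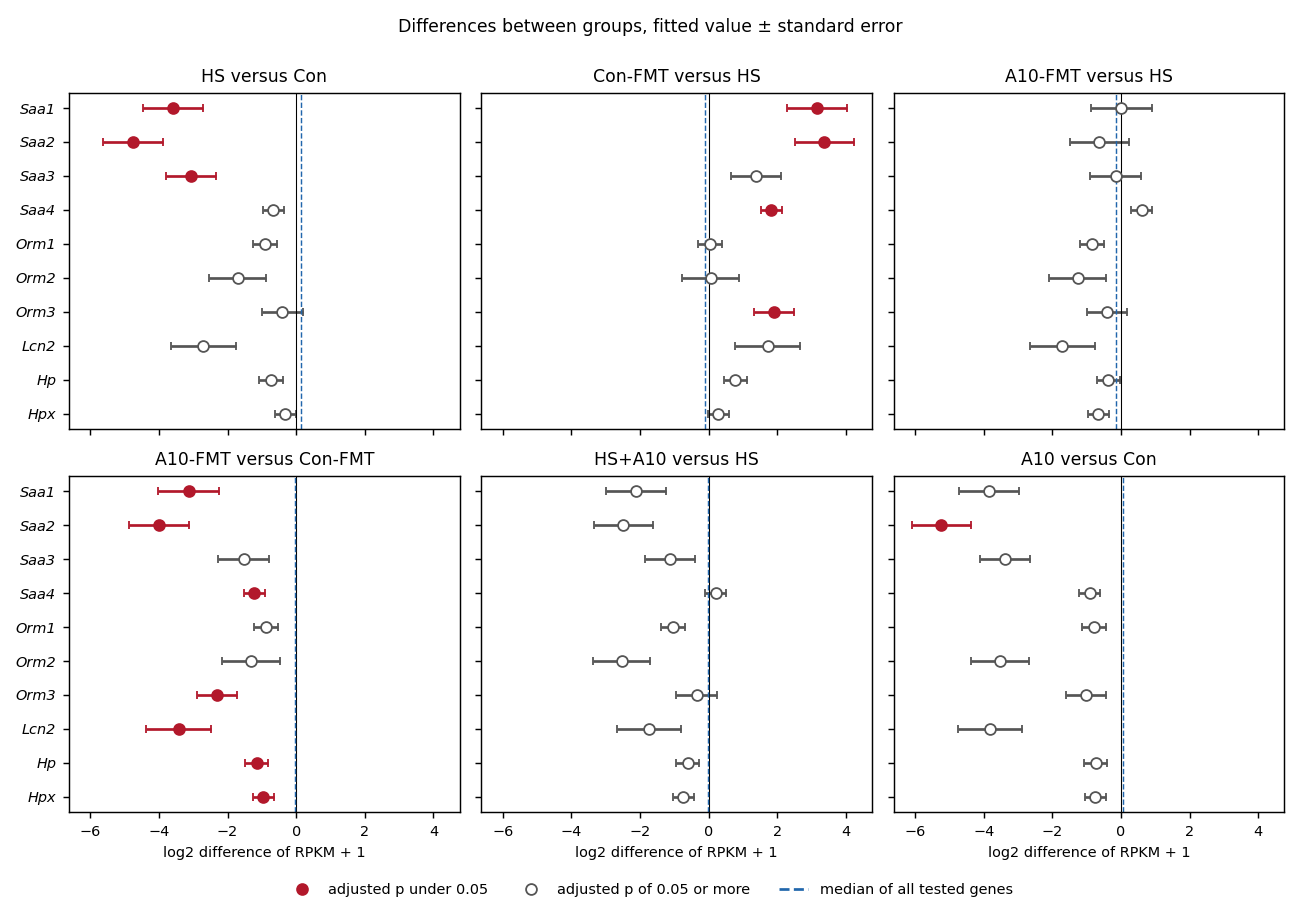
Fitted difference of log2(RPKM + 1) with its standard error (horizontal axes) for the 10 genes (vertical axes) in 6 comparisons, red and filled where the adjusted p from limma was under 0.05, with a dashed line at the median of all 10204 tested genes. A10-FMT against Con-FMT holds 7 red points, all lower, Con-FMT against HS holds 4, all higher, HS against Con 3 and A10 against Con 1, and the remaining panels hold 0.

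Other genes of the acute-phase pathway were taken from fixed lists. These lists were recounted with libraries left out but not under other scalings. With median scaling all lower calls in A10-FMT against HS went from 2145 to 516. Of 18 further positive acute-phase proteins 16 were tested. In A10-FMT against Con-FMT 11 of them were called lower and 0 higher, with a median of -0.86. Of all tested genes 12% were called lower and 6.72% higher there, with a median of -0.03. Steap4, a metalloreductase, was at 32.3 ± 3.65 RPKM in A10-FMT and 158 ± 65.5 RPKM in Con-FMT (mean ± SD, n = 3) and fell by 2.19 on the log2 scale. The lipopolysaccharide-binding protein Lbp was at -1.37, the protease inhibitor Serpina3n at -1.08 and the fibrinogen chain Fgg at -0.94. In A10-FMT against HS 6 of the 16 were called lower and 1 higher, beside 21.0% and 2.09% of all tested genes. Those lower included Lbp at -1.06, Itih3 at -0.61 and Fgg at -0.54, and the iron hormone Hamp was higher, at 1.17. Without Con replicate 3 the count was 4 lower, with Lbp no longer called. In HS+A10 against HS 5 were called lower and 0 higher, beside 4.37% and 2.95% of all tested genes. The 5 included Apcs, the serum amyloid P component, at -1.54, Itih3 at -0.74, Fga at -0.69 and Fgg at -0.63. Without Con replicate 3 that count was 3 (Fga, Fgg and Itih3), with Apcs no longer called. In Con-FMT against HS Steap4, at 2.08, and Serpina3n, at 0.67, were called higher, and without Con-FMT replicate 3 only Steap4 was. Of all tested genes 4.61% were called higher and 19.0% lower there. In HS against Con Apcs, at -1.65, and the complement factor Cfb, at -0.38, were called lower, beside 1.87% of all tested genes. In A10 against Con 0 of the 16 were called by limma, with 4 at an unadjusted p under 0.05 and 3 called lower without Con replicate 2. The A10-FMT against Con-FMT count was 7 without Con-FMT replicate 3, with Lbp no longer called, and the HS against Con count was 0 without Con replicate 3 and 8 without Con replicate 2.

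The cytokines that start the response were barely detected. Of 7 listed cytokines 6 were in the table, and Il6, Tnf, Osm and Lif were under 1 RPKM in all 18 libraries. Il1b, interleukin 1 beta, was tested and was called lower in HS than in Con (-0.47), in A10-FMT than in HS (-0.55) and in A10-FMT than in Con-FMT (-0.92). The first of these calls was lost without Con replicate 3 and also without Con replicate 2. In the same order, 1.87%, 21.0% and 12% of all tested genes were called lower. Among 6 tested cytokine receptors 2 were called higher in Con-FMT than in HS, beside 4.61% of all tested genes. The interleukin 1 receptor Il1r1 was at 36.8, 50.9 and 51.7 RPKM in Con-FMT and 11.7, 8.99 and 7.11 RPKM in HS, a log2 difference of 2.22 (SE 0.27), and the interleukin 6 receptor Il6ra was higher by 0.97 (SE 0.19). In A10-FMT against Con-FMT both were called lower, at -1.93 and -0.74, beside 12% of all tested genes. Without Con-FMT replicate 3 only Il1r1 was called lower. For Il1r1 the Con-FMT libraries stood above all 15 others, and the Con libraries, at 19.5, 8.76 and 14.3 RPKM, did not share this level although 2 of them had more Saa1.

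Several inducible regulators were also higher in Con-FMT. Of 12 transducers and transcription factors 4 were called higher in Con-FMT than in HS and 0 lower, beside 4.61% and 19.0% of all tested genes. They were Cebpb, higher by 1.5 (SE 0.25), Cebpd by 1.26 (SE 0.19), Hnf4a by 0.53 (SE 0.10) and Stat3 by 0.39 (SE 0.13). The count was 3, with Stat3 no longer called, without Con-FMT replicate 3 and also without Con replicate 3. In A10-FMT against Con-FMT 5 were called lower and 1 higher, beside 12% and 6.72% of all tested genes. Cebpd was at -1.09, Stat3 at -1.08, Cebpb at -0.84 and Hnf4a at -0.70, and the gene called higher was the glucocorticoid receptor Nr3c1, at 0.35. Without Con-FMT replicate 3 Cebpb was not called there. In A10-FMT against HS 3 of the 12 were called lower, with Stat3 at -0.69, and 1 higher, beside 21.0% and 2.09% of all tested genes. In HS+A10 against HS 1 was called lower, Stat3 at -0.62, and 1 higher, beside 4.37% and 2.95%. Of 5 genes listed as inhibitors 4 were called higher in Con-FMT than in HS, beside 4.61% of all tested genes. Socs3, the feedback inhibitor of STAT3 signalling, was at 16.2, 11.5 and 31.9 RPKM in Con-FMT against 4.83, 2.31 and 1.75 RPKM in HS, a difference of 2.35 (SE 0.35). For Socs3 and Cebpd the Con-FMT libraries stood above all 15 others, whereas for Cebpb, Tnfaip3 and Nfkbia they overlapped A10-FMT. Tnfaip3 at 1.64, Nfkbiz at 1.15 and Nfkbia at 0.80, all targets of NF-kB, were higher as well, while Pias3 was lower, at -0.65. In A10-FMT against Con-FMT Socs3, Tnfaip3 and Nfkbiz were called lower and Pias3 higher, beside 12% and 6.72% of all tested genes. In Con, Socs3 was at 3.00, 1.94 and 2.47 RPKM, Cebpb at 41.5, 54.9 and 56.6 RPKM and Cebpd at 1.73, 1.52 and 1.86 RPKM, so that Con replicates 1 and 3, the libraries with the most Saa1, Saa2 and Lcn2, were not above the Con-FMT libraries in any of these regulators.

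**Figure D4:**
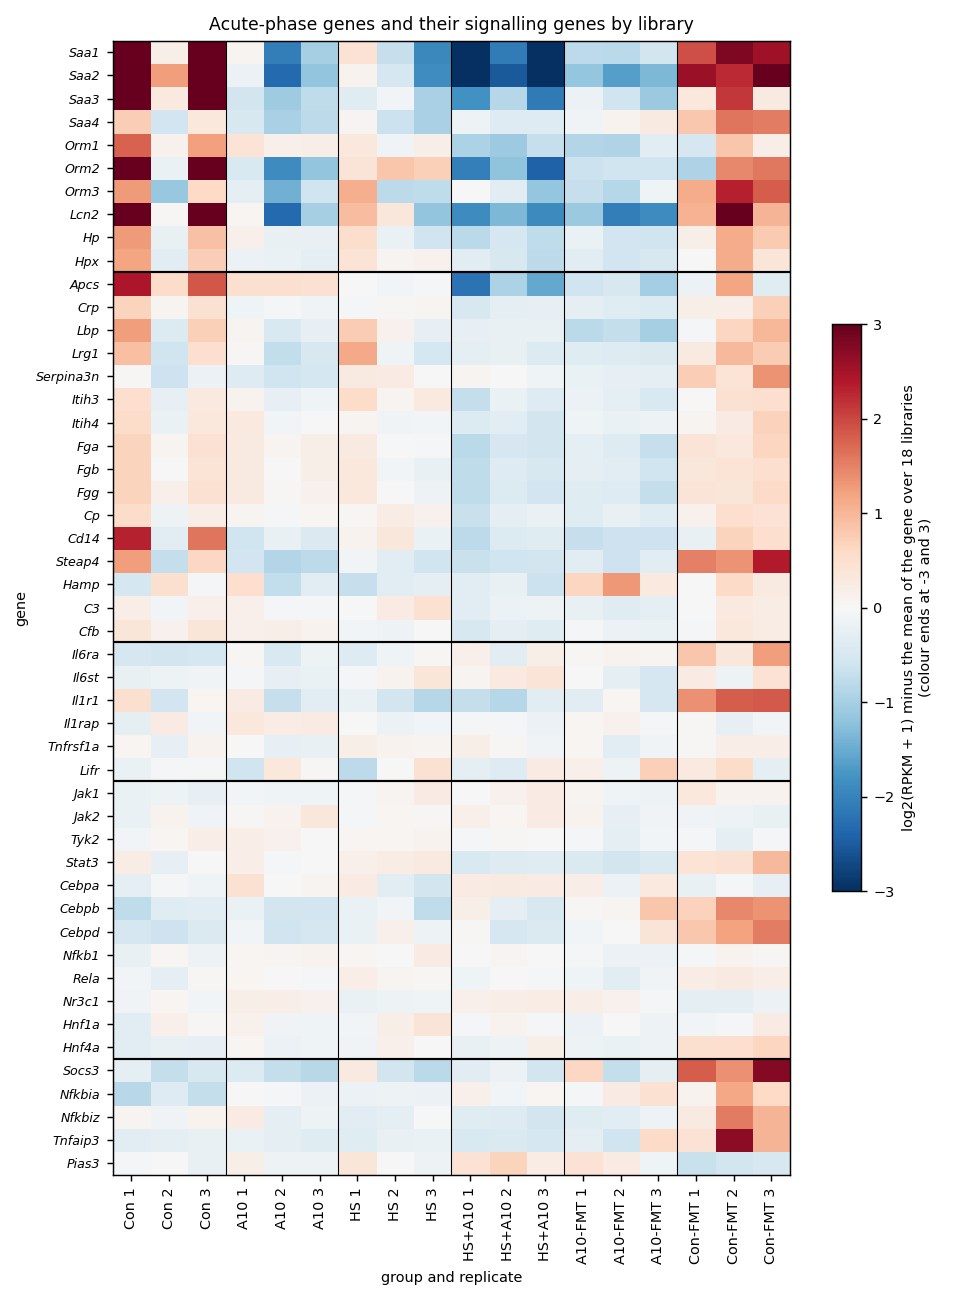
log2(RPKM + 1) of each gene minus its mean over the 18 libraries (colour, ending at -3 and 3), for the 10 acute-phase genes and for the tested genes of 4 lists below them (other positive acute-phase proteins, cytokine receptors, transducers and transcription factors, inhibitors), separated by lines, in the 18 libraries (columns). Most of the 10 acute-phase genes are high in Con replicates 1 and 3 and in Con-FMT. Orm1 and Orm2 are below their means in Con-FMT replicate 1, at 669 and 23.6 RPKM. Il1r1, Cebpb, Cebpd and Socs3 are high in Con-FMT, with Socs3 at 11.5 to 31.9 RPKM there and at 1.94 to 3.00 RPKM in Con.

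Markers of cells other than hepatocytes were set beside these values. Of 13 neutrophil markers, 10 were under 1 RPKM in every library, among them Mpo, Elane and Ly6g, and the 13 together summed to 5.86 to 10.6 RPKM in Con-FMT, 2.37 to 6.96 in HS, 1.48 to 2.79 in A10-FMT and 3.67 to 12.2 in Con. The 2 tested ones, S100a8 and S100a9, were called lower in A10-FMT against Con-FMT, at -1.17 and -1.21, beside 12% of all tested genes. Only S100a8 was called lower without Con-FMT replicate 3. The 13 macrophage and Kupffer cell markers summed to 109 to 137 RPKM in A10-FMT, 146 to 224 in Con-FMT, 186 to 268 in HS and 147 to 221 in Con. Of 12 tested, 8 were called lower in A10-FMT than in HS, where 21.0% of all tested genes and 0 of the 10 acute-phase genes were called lower. That count was 6 without Con replicate 3 and 9 without Con-FMT replicate 3. Of the 12, 0 were called by limma in A10-FMT against Con-FMT, with 4 at an unadjusted p under 0.05. Adipocyte markers were at or near 0 except in Con-FMT replicate 3, where the 4 summed to 3.63 RPKM. The part of these cells in the levels of the acute-phase genes was not tested.

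Among genes outside the 10, those most like a member over the 18 libraries were found by Pearson's r of log2(RPKM + 1), a description over libraries that share groups and the 2 intermediate libraries. For Saa1 these were Scara5, a ferritin receptor, with r = 0.90, Serpina10, a plasma inhibitor of coagulation factors, with r = 0.90, and Itih4, with r = 0.86. Scara5 was at 8.17 ± 3.98 RPKM in Con and 12.4 ± 3.99 RPKM in Con-FMT (mean ± SD, n = 3), against 1.38 to 3.79 RPKM in the other 12 libraries. For Orm1 they were the phospholipid flippase Atp11a (r = 0.93), the iron transporter Slc11a2 (r = 0.91) and Apcs (r = 0.91). For Lcn2 they were Cd14, a co-receptor for lipopolysaccharide (r = 0.89), Serpina10 (r = 0.89) and Prtn3, a neutrophil protease (r = 0.88). For Hpx they were Serpina10 (r = 0.90), the hepatocyte-secreted Fgl1 (r = 0.89) and Cd14 (r = 0.87). Among the members themselves, Saa1 and Saa2 had r = 0.98 and Saa4 and Orm3 had r = 0.90, while Saa4 and Orm1 had r = 0.30.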

How the data were processed

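Liver RNA of 18 libraries in 6 groups of 3 was analysed, with groups taken from the labels. The authors selected polyadenylated RNA, aligned with SOAPaligner and deposited RPKM values, 1 per gene and library, with 2 decimals. The submitters' processing notes name Bowtie 0.12.2 and the build mm10, without saying for which step. The number of reads is not given in the sources used here, so no counting error was computed. The values were used as deposited, without scaling, and the table's 18 value columns were all mapped to samples (0 left out).

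The 10 genes and the lists of pathway and marker genes were chosen with earlier results of these data known. The study used DEGseq, which needs counts, so limma 3.58.1 in R 4.3.3 was applied to log2(RPKM + 1), with a pseudocount of 1, a filter on genes whose mean RPKM reached 1 (10204 of 19057 genes), 1 mean per group, no covariate and a variance trend. P-values are two-sided and Benjamini-Hochberg adjusted over all tested genes, with calls at an adjusted p under 0.05. All 10 genes were named, with at most 4 called genes by size of change in each pathway list and comparison, and the 3 genes most like Saa1, Orm1, Lcn2 and Hpx. The Con levels of Il1r1, Cebpb, Cebpd and Socs3, Cd163, and genes beyond 4 named beside a count were chosen after their values were seen. The fit was tested on simulated data. Promoters and positions came from RefSeq tables of GRCm38.p6, the same assembly as mm10, and were aligned with Biopython 1.88 in Python 3.11.15. The alternatives tried were quantile and median scaling, a pseudocount of 0.1, a filter at a mean RPKM of 5, no filter at all, a replicate block, no variance trend, the threshold of the study (adjusted p of at most 0.001 and a log2 difference of at least 1), a fit of the 12 libraries of 4 groups, and each library left out in turn. Leaving out Con replicate 3 and A10 replicate 3 together, and recounting the lists without Con-FMT replicate 3, Con replicate 3 or Con replicate 2, were added after seeing the data.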

Additional observations from a re-analysis of the deposited data

How the results depend on the processing

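The counts of called genes among the 10 were, in the order HS against Con, A10-FMT against HS, Con-FMT against HS, HS+A10 against HS, A10 against Con and A10-FMT against Con-FMT, 3, 0, 4, 0, 1 and 7. They stayed within 1.5 times of these under a pseudocount of 0.1, a mean of at least 5 RPKM (Orm3 is not tested there), quantile and median scaling and no variance trend. The same held in the fit of 12 libraries, which does not include HS+A10 against HS and A10 against Con. Without the filter the count was 0 in A10 against Con and 3 in A10-FMT against Con-FMT, with the log2 differences as before and more genes to adjust over. Under the threshold of the study the counts were 0 in HS against Con, 1 in Con-FMT against HS (Saa4), 0 in A10 against Con and 0 in A10-FMT against Con-FMT. Without Con replicate 3 and A10 replicate 3 together they were 1 in HS against Con and 0 in A10 against Con. With each library left out in turn the counts ranged from 1 to 8 in HS against Con, from 0 to 2 in A10-FMT against HS, from 1 to 6 in Con-FMT against HS, from 0 to 4 in HS+A10 against HS, from 0 to 6 in A10 against Con and from 2 to 9 in A10-FMT against Con-FMT. The highest count of each came without Con replicate 2. In the comparisons that do not include Con, this library enters only through the shared variance. What set this library apart was not tested. With the replicate block Hpx was no longer called in A10-FMT against Con-FMT (6 calls), and no other call among the 10 changed. Deviations of same-numbered libraries had r between -0.13 and 0.26 over 45 pairs, with 12 over 0.1 and a median of 0.0067. The median for libraries with other numbers was -0.0073. Whether the replicate numbers pair the libraries cannot be told from these correlations.

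Differences that changed sign were all uncalled. With median scaling Saa3 was at 0.0211 in A10-FMT against HS. With 1 library left out in turn, the log2 differences that changed sign ranged, in HS against Con, from -1.09 to 0.11 for Orm3 and from -0.752 to 0.008 for Hpx. In A10-FMT against HS they ranged from -0.72 to 0.22 for Orm3, from -0.41 to 0.0817 for Saa3 and from -0.59 to 0.594 for Saa1, and in HS+A10 against HS from -0.665 to 0.27 for Orm3 and from -0.0276 to 0.497 for Saa4. In Con-FMT against HS they ranged from -0.28 to 0.386 for Orm1, from -0.39 to 0.87 for Orm2 and from -0.0277 to 0.532 for Hpx. With 3 libraries per group and an unknown number of reads, small differences of low genes such as Orm3 were not resolvable.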

Other observations

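Of the 9 negative acute-phase proteins, plasma proteins that fall during inflammation, the fitted difference was positive for 8 in A10-FMT against HS (median 0.18), 8 in A10 against Con (0.19), 6 in A10-FMT against Con-FMT (0.11) and 6 in Con-FMT against HS (0.13), and negative for 6 in HS against Con (-0.18) and 5 in HS+A10 against HS (-0.03). The medians of all tested genes were, in the same order, -0.16, 0.07, -0.03, -0.12, 0.14 and -0.03. These signs were not recounted under other scalings, and the share of all tested genes with each sign was not computed. Serpina6, the carrier of corticosteroids, was called higher than in HS in A10-FMT (log2 difference 1.58), HS+A10 (0.98) and Con-FMT (0.85), and in A10-FMT against Con-FMT it was called higher as well (0.74), though not without Con-FMT replicate 3. The transthyretin gene Ttr was called lower (-0.47) and the retinol-binding protein gene Rbp4 higher (0.44) in HS than in Con. Both calls were lost without Con replicate 3, and that of Ttr also without Con replicate 2. Fetub was called higher in Con-FMT than in HS (0.38). Of the 9, 1 was called higher in A10-FMT against HS, beside 2.09% of all tested genes, and 1 in HS+A10 against HS, beside 2.95%. In Con-FMT against HS 2 were called higher, beside 4.61%, and in A10-FMT against Con-FMT 1, beside 6.72%. In HS against Con 1 was called higher and 1 lower, beside 15.9% and 1.87%.

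Receptors that take up the proteins or their cargo were listed as well, and 5 of 9 were tested. The scavenger receptors Cd36 (1.66) and Scarb1 (0.97) and the hemopexin receptor gene Lrp1 (0.39) were called higher in HS than in Con, with and without Con replicate 3, and Cd36 was called higher in HS+A10 than in HS (1.57). Of all tested genes 15.9% were called higher in HS than in Con and 2.95% in HS+A10 than in HS. Hmox1, heme oxygenase 1, was at 26.0, 37.9 and 27.8 RPKM in Con-FMT and 13.4, 11.1 and 7.78 RPKM in A10-FMT, and the A10-FMT level was called lower than that of Con-FMT (-1.43) and of HS (-0.88). Of the 5, 1 was called lower in A10-FMT against HS, beside 21.0% of all tested genes. In A10-FMT against Con-FMT 2 were called lower, beside 12%, and without Con-FMT replicate 3 these were Hmox1 and Tlr2. The haptoglobin receptor gene Cd163 was at 0.45 to 1.86 RPKM over all libraries.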
